A study of Mus musculus with 6 samples.

Results

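The 10 endothelial and endocardial identity genes examined here were Pecam1, Cdh5, Cldn5, Kdr, Flt1, Tek, Tie1, Egfl7, Emcn and Nfatc1. They were taken by symbol from the 22180 genes that the arrays measured through a row with exactly 1 gene symbol, and each of the 10 genes had 1 such row. The samples were pools of C57BL/6 mouse hearts at embryonic day 9.5, hybridised to 6 Affymetrix arrays. In 3 pools the embryos were Hdac3-flox/flox, with both copies of the deacetylase gene Hdac3 flanked by loxP sites and no Cre. In the other 3 they were Hdac3-flox/flox; Isl1-Cre, called Hdac3-Isl1KO, in which Cre is made in cells that express Isl1. All groups therefore carried the floxed gene, and since no pool had Isl1-Cre without it, an effect of the Cre allele cannot be told apart from that of Hdac3 loss. Neither the number of hearts per pool nor the litters they came from are stated in the sources used here. The p-values therefore rest on the variation among these 6 pools alone, some of which may be technical.

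Endothelial cells line all vessels, and the endocardium is the endothelium of the heart itself. They are held together by junctions of cadherin, claudin and PECAM proteins, and they grow and branch under vascular endothelial growth factor (VEGF) and the angiopoietins, which act through the receptor kinases of the VEGF and Tie families. In the early heart the endocardium signals to the muscle wall and, where valves will form, gives rise to cushion cells. Isl1-expressing progenitors of the second heart field contribute endocardial and endothelial cells as well as muscle to the outflow tract and right ventricle, so Isl1-Cre reaches part of these cells and leaves the rest of the heart's endothelium with its floxed gene. The comparison asks whether the expression of endothelial and endocardial genes differs in whole hearts once Hdac3 has been removed from that lineage.

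None of the 10 genes passed the test in either direction. Egfl7 and Tek were 1.14-fold and 1.12-fold below the Hdac3-flox/flox level, Cldn5 and Flt1 were 1.13-fold and 1.12-fold above it, and the other 6 differed by at most 0.084 on the log2 scale. The test was limma over all genes with Benjamini-Hochberg adjustment, and 0 of 10 had an adjusted p under 0.05, where 95 of 22180 genes, 0.428%, did. At that share hardly any gene of a list of this length would be called. An unadjusted limma p under 0.05 was found for 1 of the 10, against 14.5% of all genes. The sizes are therefore better described by their intervals: all 10 of the 95% intervals lay between -0.35, the lower bound for Egfl7, and 0.37, the upper bound for Cldn5. Those bounds correspond to 1.27-fold lower and 1.30-fold higher. They hold for whole heart RNA. Isl1-Cre reaches only part of the endothelium, so a change confined to the cells it reaches could be larger than these bounds. Since the tissue was whole heart, fewer cells of a type and less RNA per cell cannot be told apart.

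**Figure D1:**
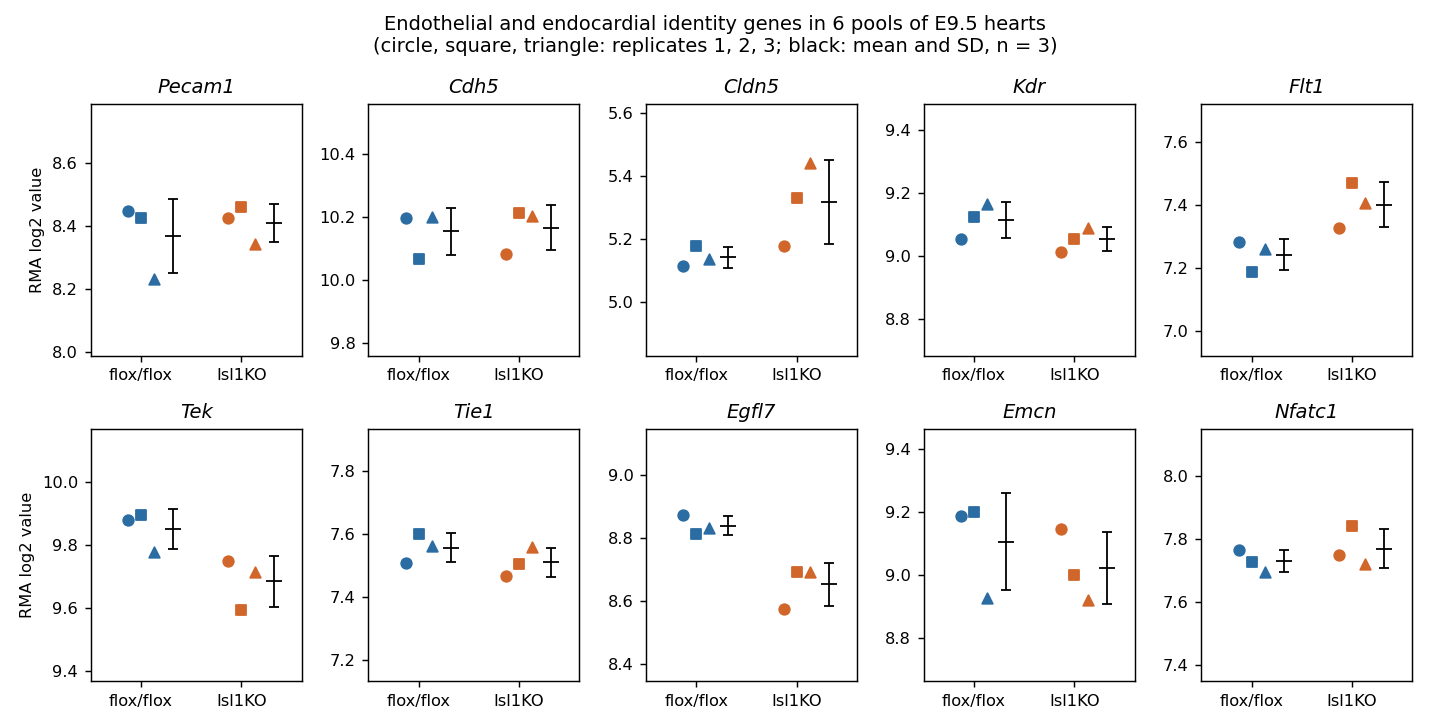
RMA log2 value (y axis, the same span of 0.8 log2 units in every panel) of each of the 10 genes on the 3 Hdac3-flox/flox arrays (blue) and the 3 Hdac3-Isl1KO arrays (orange), with circles, squares and triangles for replicates 1, 2 and 3 and the mean and SD in black. The groups are separate for Flt1, Tek and Egfl7 and overlap or touch for the other 7 genes.

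The regulatory sequence next to the start sites is shown for the 4 receptor genes, because these form pairs within a family, Kdr with Flt1 and Tek with Tie1, whose differences are set against each other in the results. ETS factors such as ERG and FLI1 are the classical activators of endothelial genes and bind a GGAA core, so the letters AGGAAG and CGGAAG were searched on both strands and are given in capitals. Each window runs from 250 bases before to 50 after the start in RefSeq's table for GRCm38.p6, read 5′ to 3′ in the direction of the gene. Kdr is at chr5:75978406-75978705 and Flt1 at chr5:147725962-147726261, both on the minus strand, and Tek is at chr4:94739039-94739338 on the plus strand and Tie1 at chr4:118489800-118490099 on the minus strand.
Kdr: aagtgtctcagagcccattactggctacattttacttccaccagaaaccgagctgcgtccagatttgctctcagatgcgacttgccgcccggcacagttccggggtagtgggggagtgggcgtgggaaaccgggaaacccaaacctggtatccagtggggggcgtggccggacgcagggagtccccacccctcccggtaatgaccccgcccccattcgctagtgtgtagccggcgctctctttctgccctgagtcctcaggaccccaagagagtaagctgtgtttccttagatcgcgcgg
Flt1: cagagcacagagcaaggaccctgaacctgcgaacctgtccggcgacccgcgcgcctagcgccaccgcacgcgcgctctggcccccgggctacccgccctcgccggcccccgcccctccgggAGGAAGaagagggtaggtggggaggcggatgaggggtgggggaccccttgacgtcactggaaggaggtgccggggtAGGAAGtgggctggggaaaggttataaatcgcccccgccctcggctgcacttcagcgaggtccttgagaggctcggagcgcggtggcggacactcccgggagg
Tek: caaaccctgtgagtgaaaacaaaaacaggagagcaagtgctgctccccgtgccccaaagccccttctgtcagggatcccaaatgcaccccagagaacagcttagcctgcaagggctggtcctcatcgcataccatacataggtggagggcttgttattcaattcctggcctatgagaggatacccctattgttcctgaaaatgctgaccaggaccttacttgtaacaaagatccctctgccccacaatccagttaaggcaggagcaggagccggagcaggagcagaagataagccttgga
Tie1: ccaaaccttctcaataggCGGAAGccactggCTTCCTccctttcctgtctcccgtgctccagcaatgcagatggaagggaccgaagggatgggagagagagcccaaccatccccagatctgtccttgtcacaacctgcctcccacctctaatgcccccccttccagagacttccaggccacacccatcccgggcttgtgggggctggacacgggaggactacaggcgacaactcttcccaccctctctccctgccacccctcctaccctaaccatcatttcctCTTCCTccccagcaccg
Flt1 and Tie1 held 2 and 3 such matches in this window, while Kdr and Tek held 0. The bare GGAA core does occur in the windows of Kdr and Tek, so 0 matches to these longer forms does not mean that ETS sites are absent. Any relation of the matches to the differences between the receptors was not tested. The table held 9 windows for 7 of the 10 genes, with 3 for Egfl7, and no entry for Pecam1, Cdh5 or Nfatc1. A match to either form was present in 5 of the 9 windows, namely those of Flt1, Tie1 and Emcn and 2 of those of Egfl7, and in 46.5% of all 32851 promoter windows of the same length. The GATA factor letters AGATAA were found in 1 of the 9, that of Tek, against 11.2% of all windows. These matches describe the letters in the windows and are not measured binding.

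The VEGF receptors came first among the signalling genes. Kdr encodes the receptor through which VEGF-A mainly signals in endothelium. Its log2 values were 9.05, 9.13 and 9.17 in Hdac3-flox/flox and 9.01, 9.05 and 9.09 in Hdac3-Isl1KO. The groups overlapped. The difference was -0.062 (95% interval -0.22 to 0.097, limma adjusted p = 0.720). Flt1 encodes a receptor that binds VEGF-A tightly with little signalling of its own, and whose soluble form holds the ligand back from Kdr. Flt1 read 7.28, 7.18 and 7.26 in Hdac3-flox/flox and 7.33, 7.47 and 7.41 in Hdac3-Isl1KO, so all knockout pools lay above all control pools. Its means were 7.24 ± 0.05 and 7.40 ± 0.07 (SD, n = 3 each), a difference of 0.16 (95% interval -0.0093 to 0.33). With limma the adjusted p was 0.372 (range over all alternatives 0.179 to 0.652). The array row summarises the whole gene, so membrane-bound and soluble forms of Flt1 are not separated.

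Taken within each array, which removes any shift that both genes share on that array, Flt1 relative to Kdr was 0.22 higher in the Hdac3-Isl1KO pools, or 1.17-fold. Relative to the Hdac3-flox/flox mean the Flt1 to Kdr log2 ratio was 0.10, -0.067 and -0.034 in the control pools and 0.19, 0.29 and 0.19 in the knockout pools. The groups did not overlap. A two-sided exact permutation test gave p = 0.10, the smallest that 3 against 3 allows, and 0.20 after adjustment over the 2 receptor pairs compared. Tie1 relative to Tek was 0.12 higher, with overlapping groups (exact permutation p = 0.20, 0.20 adjusted). The smallest possible p of 0.10 lies above the threshold used here, so this test could not pass either pair and decides nothing about them. The ratios were also computed with the single-gene values already known, so they are given as a description.

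The Tie receptors gave small negative values. Tek, also called Tie2, is the receptor for the angiopoietins and keeps vessels stable. Its values were 9.88, 9.90 and 9.78 in Hdac3-flox/flox and 9.75, 9.59 and 9.72 in Hdac3-Isl1KO. Every knockout pool was below every control pool, although replicate 3 of Hdac3-flox/flox and replicate 1 of Hdac3-Isl1KO lay only a small distance apart. The means were 9.85 ± 0.06 and 9.69 ± 0.08 (SD, n = 3 each), a difference of -0.17 (95% interval -0.34 to 0.012, limma adjusted p = 0.376). Tie1, a related receptor that modulates Tek signalling, read 7.51, 7.60 and 7.56 in Hdac3-flox/flox and 7.47, 7.51 and 7.56 in Hdac3-Isl1KO. The groups overlapped, with replicates 1 and 2 of Hdac3-Isl1KO below all control pools and replicate 3 among them. The difference of -0.047 (95% interval -0.20 to 0.11, limma adjusted p = 0.793) turned to 0.015 when the arrays were quantile normalized.

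Of the cell surface and secreted products, Egfl7 had the smallest p-value among the 10 genes. Egfl7 encodes a protein that endothelial cells secrete into their matrix, and an intron of the gene holds the endothelial microRNA miR-126. Its values were 8.87, 8.81 and 8.83 in Hdac3-flox/flox and 8.57, 8.69 and 8.69 in Hdac3-Isl1KO. The groups did not overlap, and the controls lay close together. Means of 8.84 ± 0.03 and 8.65 ± 0.07 (SD, n = 3 each) gave a difference of -0.19 (95% interval -0.35 to -0.025), with a limma unadjusted p of 0.0293 and an adjusted p of 0.285. With any 1 array left out the difference stayed between -0.21 and -0.15. Emcn encodes endomucin, a mucin-like protein on venous and capillary endothelium and on endocardium. It read 9.19, 9.20 and 8.93 in Hdac3-flox/flox and 9.15, 9.001 and 8.92 in Hdac3-Isl1KO, a difference of -0.084 (95% interval -0.33 to 0.16, limma adjusted p = 0.757). Emcn had the widest interval of the 10, and replicate 3 was the lowest array of each group. Its difference ranged from -0.17 without Hdac3-flox/flox replicate 3 to -0.033 without Hdac3-Isl1KO replicate 3.

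The junction genes included the brightest and the dimmest row of the set. Cdh5 encodes VE-cadherin, the adhesion protein of endothelial adherens junctions. Its values were 10.20, 10.07 and 10.20 in Hdac3-flox/flox and 10.08, 10.21 and 10.20 in Hdac3-Isl1KO. The groups covered the same range. The difference was 0.011 (95% interval -0.17 to 0.19, limma adjusted p = 0.963), and its sign turned without Hdac3-flox/flox replicate 2 (-0.032), Hdac3-Isl1KO replicate 2 (-0.011) or Hdac3-Isl1KO replicate 3 (-0.0072). Pecam1, the gene for the adhesion protein CD31, which platelets and leukocytes also carry, read 8.45, 8.43 and 8.23 in Hdac3-flox/flox and 8.43, 8.46 and 8.34 in Hdac3-Isl1KO. Replicate 3 was again the lowest of each group, and the difference of 0.040 (95% interval -0.16 to 0.24, limma adjusted p = 0.870) became -0.028 without Hdac3-flox/flox replicate 3. Cldn5 encodes the main claudin of endothelial tight junctions and is also made by heart muscle. It read 5.11, 5.18 and 5.14 in Hdac3-flox/flox and 5.18, 5.33 and 5.44 in Hdac3-Isl1KO. The lowest knockout pool touched the highest control pool, and the knockout pools were spread more widely (SD 0.13 against 0.03, n = 3 each). The difference was 0.17 (95% interval -0.026 to 0.37, limma adjusted p = 0.407). Its row was dimmer than the median gene, 6.05, and since RMA compresses differences of dim rows this value may be understated.

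Nfatc1 was the only transcription factor among the 10 and is known in development for its place in the endocardium, where it is needed for the growth of the valves. It read 7.77, 7.73 and 7.70 in Hdac3-flox/flox and 7.75, 7.84 and 7.72 in Hdac3-Isl1KO. The groups overlapped, and the difference was 0.041 (95% interval -0.12 to 0.20, limma adjusted p = 0.826). A change beyond 0.20, or 1.15-fold, upward or 0.12 downward thus lies outside the interval for this gene in whole heart RNA.

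**Figure D2:**
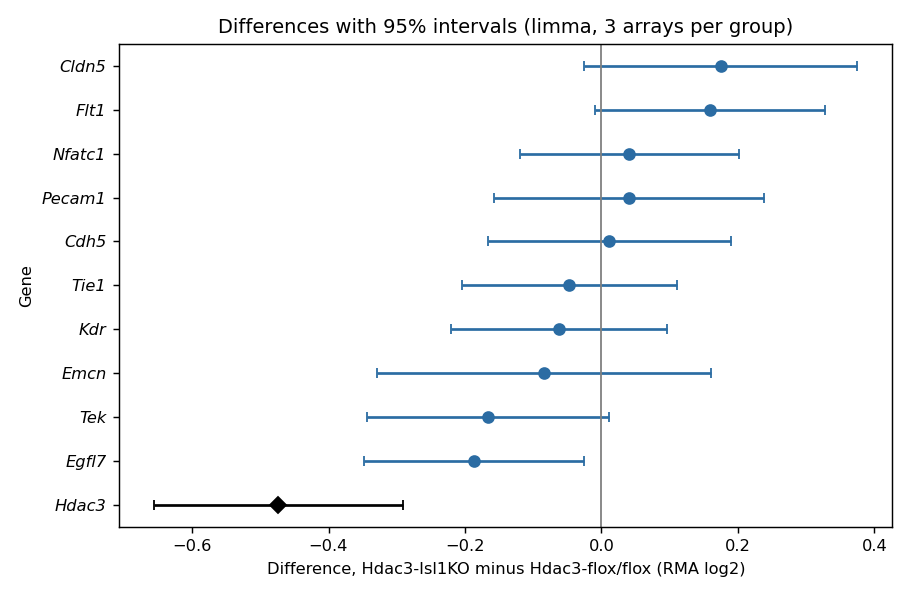
Difference in RMA log2 value, Hdac3-Isl1KO minus Hdac3-flox/flox (x axis), for the 10 genes (blue circles) and for Hdac3 (black diamond), with 95% intervals from limma. The interval includes 0 for 9 of the 10 genes, the exception being Egfl7, and the estimate for Hdac3, -0.47, lies below all of them.

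Side by side, 5 of the 10 genes were above 0 and 5 below, with a median difference of -0.018 against 9.4e-05 over all genes. The median size of the difference, without its sign, was 0.073 for the 10 genes and 0.10 for all genes. The groups did not overlap for 3 of the 10, 1 higher (Flt1) and 2 lower (Tek and Egfl7), where 21.8% of all genes had groups that did not overlap, 9.41% higher and 12.4% lower in Hdac3-Isl1KO. The mean of the 10 log2 values was 8.33, 8.32 and 8.28 in the Hdac3-flox/flox pools and 8.27, 8.32 and 8.31 in the Hdac3-Isl1KO pools. These means overlapped and spanned 8.27 to 8.33 over all arrays. The log2 of the summed linear values of the 10 genes, which weights the brightest rows such as Cdh5 and Tek most, was 12.18, 12.15 and 12.12 in the Hdac3-flox/flox pools and 12.08, 12.10 and 12.10 in the Hdac3-Isl1KO pools. On that measure the knockout pools lay below all control pools by a small margin, so the picture depends on how the genes are weighted. The half-width of the 95% interval had a median of 0.17 over the 10 genes and 0.23 over all genes. Hdac3 itself stood at 9.67, 9.73 and 9.64 in Hdac3-flox/flox and 9.11, 9.20 and 9.31 in Hdac3-Isl1KO, a difference of -0.47 (95% interval -0.66 to -0.29, limma adjusted p = 0.0636, range over all alternatives 0.00108 to 0.244). Whether its probes read the floxed exons is unknown, so the value is a partial check of the labels.

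The other endothelial genes were read from lists chosen for their function. Their counts at an unadjusted limma p under 0.05 stand beside 14.5% of all genes. Of 25 measured genes for endothelial surface and signalling proteins, 0 were called, with 12 above 0, 13 below, a median of -0.0032 and 1 unadjusted limma p under 0.05. The smallest p-values belonged to Apln, the ligand of the apelin receptor made by sprouting endothelium, and She, an adaptor protein. Apln read 4.98, 4.82 and 5.17 in Hdac3-flox/flox and 5.18, 5.28 and 5.26 in Hdac3-Isl1KO, which did not overlap by a small margin (difference 0.25, limma adjusted p = 0.323). Like that of Cldn5, its row was dimmer than the median gene, 6.05. She differed by 0.14, Myct1 by -0.19 and the junction adhesion gene Esam by -0.085. Myct1 ranged from -0.31 to -0.10 with 1 array left out, and Esam was at -0.029 under quantile normalization. Of 12 measured endocardial genes 0 were called, 6 were above 0 and 6 below, the median was 0.0023, and 1 had an unadjusted limma p under 0.05. Adamts1, a matrix protease of the endocardium, read 8.86, 8.88 and 8.64 against 8.59, 8.48 and 8.44, without overlap (difference -0.29, limma adjusted p = 0.235). The natriuretic peptide receptor gene Npr3, a marker of ventricular endocardium, differed by -0.075, the endothelin gene Edn1 by -0.084 and Foxp1 by 0.11.

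Endothelial transcription factors were more often above 0 than below it. Of 20 measured, 13 were above 0 and 7 below with a median of 0.056. None was called, and 1 had an unadjusted limma p under 0.05. Hhex, an early endothelial and endoderm factor, differed by 0.25 (limma adjusted p = 0.315), Gata2 by 0.21, the shear-responsive factor Klf4 by 0.17 and Mef2c, which also acts in heart muscle, by 0.14 in its brightest row and by 0.033 in the mean of its rows. Hhex is also an endoderm gene, and the yolk sac endoderm markers Afp and Alb had higher values in the same knockout pools (differences of 0.84 and 0.71, limma adjusted p = 0.0515 and 0.108). Alb was dim, with a mean of 4.49 in Hdac3-flox/flox. The other listed markers of that tissue, Ttr, Apoa1, Cubn and Amn, differed by 0.34, 0.20, 0.035 and -0.0011, and none of the list was called. The part of yolk sac endoderm in the value for Hhex was not tested. Among 14 measured arterial, venous and lymphatic genes 7 were above and 7 below 0, with a median of -0.014, 0 called and 2 at an unadjusted limma p under 0.05. The Notch target Hey1 read 8.64, 8.74 and 8.68 in Hdac3-flox/flox and 9.04, 9.03 and 8.96 in Hdac3-Isl1KO, a clear separation (difference 0.33, limma adjusted p = 0.109). The arterial gap junction gene Gja5, also a gene of atrial and conducting muscle, read 7.18, 7.02 and 7.19 against 6.65, 6.94 and 6.77 (difference -0.34, limma adjusted p = 0.209). The venous factor Nr2f2 differed by 0.16 and the arterial guidance receptor Unc5b by -0.14. Hey1 passed when the variance prior followed the mean level (limma adjusted p = 0.00595) and when genes below the median row were left out (0.0224), and missed the threshold in the other alternatives, up to an adjusted p of 0.330.

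Ligands and co-receptors of the VEGF and Tie receptors included the largest difference of the endothelial and pathway lists, that of Nrp2. Of 11 measured, 3 were above 0 and 8 below, with a median of -0.083, 0 called and 2 at an unadjusted limma p under 0.05. Vegfa, the main VEGF ligand, which in the early heart comes largely from the muscle wall, read 10.04, 9.99 and 10.04 in Hdac3-flox/flox and 9.75, 9.82 and 9.76 in Hdac3-Isl1KO. The groups were well apart, at -0.25 (95% interval -0.40 to -0.099, limma unadjusted p = 0.00576, adjusted p = 0.173). Nrp2, a neuropilin that serves as co-receptor for VEGF-C in venous and lymphatic endothelium and for semaphorins in neural crest, read 7.38, 7.47 and 7.08 against 7.77, 7.65 and 7.75. Those groups were also apart, at 0.41 (95% interval 0.15 to 0.68, limma adjusted p = 0.192). Its relative Nrp1, which partners Kdr, differed by -0.097 and Angpt2, an antagonist at Tek, by -0.15, both with overlapping groups. Without Hdac3-flox/flox replicate 1, its highest array, the value for Angpt2 was -0.037. With a prior that followed the mean level Vegfa and Nrp2 passed (limma adjusted p = 0.00853 and 0.0427), and Vegfa also passed above the median row (0.0442). Both missed the threshold in the other alternatives, up to a limma adjusted p of 0.402 for Vegfa and 0.418 for Nrp2.

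**Figure D3:**
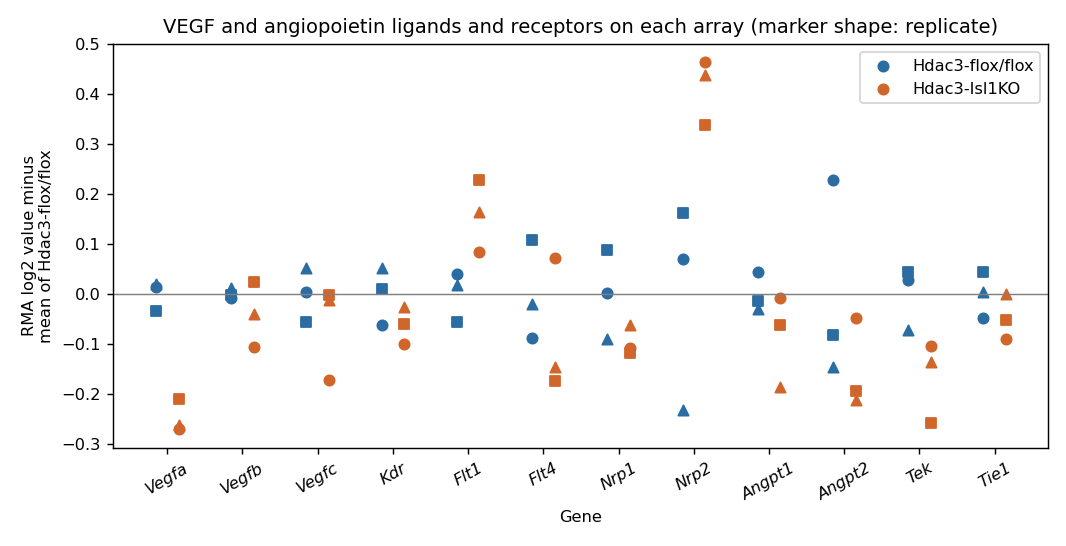
RMA log2 value minus the mean of the Hdac3-flox/flox arrays (y axis) for VEGF and angiopoietin ligands and receptors (x axis), with the 3 Hdac3-flox/flox arrays in blue, the 3 Hdac3-Isl1KO arrays in orange and marker shapes for replicates. The knockout arrays lie below all control arrays for Vegfa and Tek and above them for Flt1 and Nrp2.

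Partners of the junction proteins and of Nfatc1 were measured as well. Of 12 junction partner genes 6 were above and 6 below 0, with a median of -0.019, 0 called and 1 at an unadjusted limma p under 0.05. Jam3, a junctional adhesion molecule, read 7.83, 7.87 and 7.72 against 7.60, 7.62 and 7.56 without overlap (difference -0.21, limma adjusted p = 0.251), and its relative Jam2 differed by -0.26 with overlapping groups (limma adjusted p = 0.351). The catenin gene Ctnnb1, which links Cdh5 to the cytoskeleton and acts in Wnt signalling, differed by -0.12, and the tight junction scaffold Tjp1 by 0.071. Of 9 calcineurin and NFAT genes 4 were above and 5 below 0, with a median of -0.058, 0 called and 0 at an unadjusted limma p under 0.05. Rcan1, a calcineurin inhibitor that NFAT induces in endocardium, differed by -0.11 and Nfatc4 by 0.11. Over all 7 lists, 103 genes without the 10, 51 were above and 52 below 0 and 0 were called. An unadjusted limma p under 0.05 was found for 8 of the 103, a smaller share than the 14.5% of all genes. All lists were put together with results of these arrays known, so their counts describe the genes and test nothing.

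**Figure D4:**
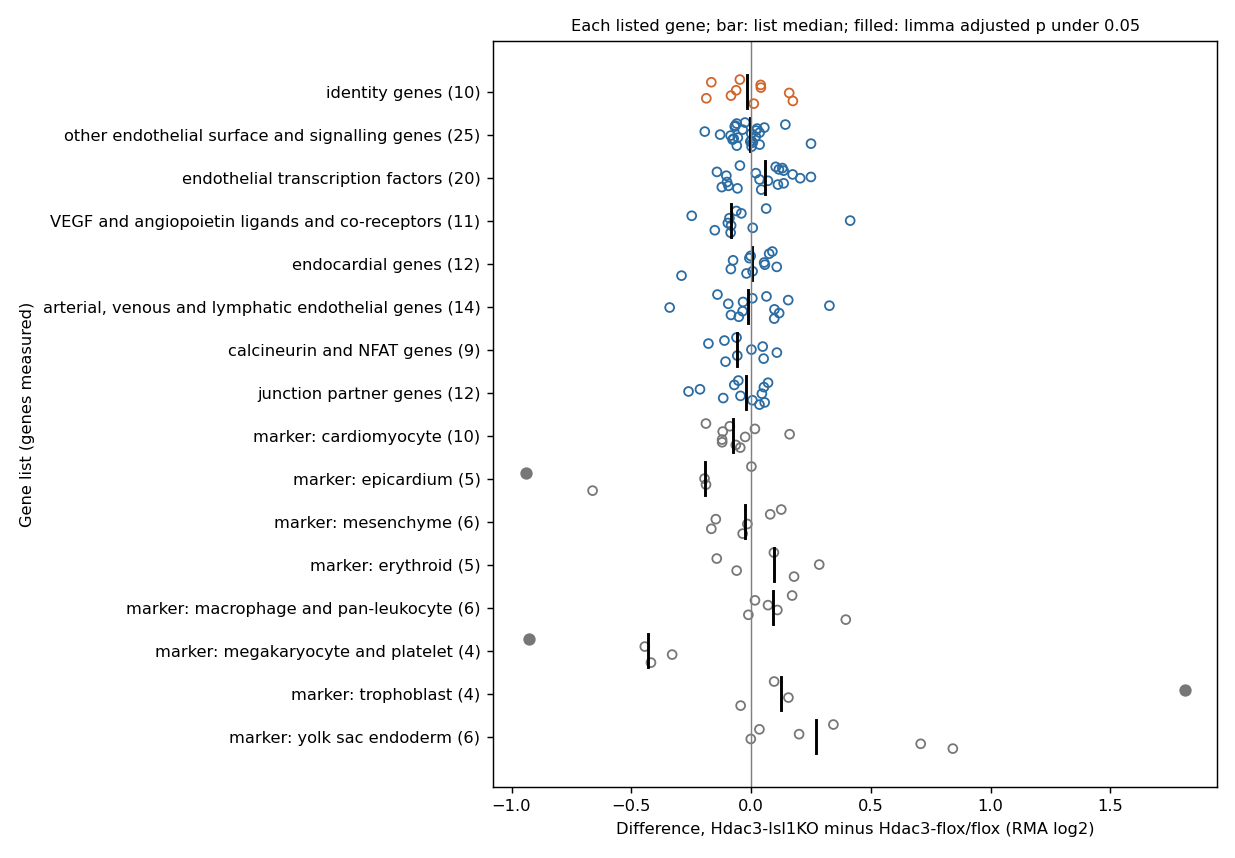
Difference in RMA log2 value, Hdac3-Isl1KO minus Hdac3-flox/flox (x axis), for each measured gene of each list (rows, number of genes in brackets), with the 10 identity genes in orange, other endothelial and pathway lists in blue and markers of other cells in grey. Bars mark list medians and filled points genes with a limma adjusted p under 0.05, of which there are 3, all among the markers of other cells.

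Other cells that share RNA with this tissue were checked with marker lists, on which no marker is at 0 since RMA values have no true zero. Cardiomyocyte markers were among the brightest genes, with a log2 summed level of 15.39 to 15.41 in Hdac3-flox/flox and 15.34 to 15.36 in Hdac3-Isl1KO, and 8 of 10 were below 0, with 0 called and 2 at an unadjusted limma p under 0.05. The 4 measured megakaryocyte and platelet markers, cells that also express Pecam1, were all below 0, at a log2 summed level of 8.86 to 9.05 against 8.31 to 8.50, and Ppbp was called (limma adjusted p = 0.0300). An unadjusted limma p under 0.05 was found for 4 of these 4, against 14.5% of all genes. Of 6 macrophage and leukocyte markers 5 were above 0, 0 were called and 1 had an unadjusted limma p under 0.05, at 8.09 to 8.17 against 8.17 to 8.28. Among them Ptprc and Adgre1 were dim, with means of 4.07 and 4.45 in Hdac3-flox/flox. Erythroid markers, 3 of 5 above 0, stood at 12.87 to 12.97 against 12.90 to 12.97, with 0 called and 2 at an unadjusted limma p under 0.05. Mesenchyme markers, 2 of 6 above 0, stood at 10.41 to 10.57 against 10.43 to 10.49, with 0 called and 1 at an unadjusted limma p under 0.05. Epicardial markers, 4 of 5 below 0 and 2 at an unadjusted limma p under 0.05, stood at 10.82 to 10.91 against 10.40 to 10.46. Upk3b was lower (limma adjusted p = 0.00895). Upk3b, the brightest of the 5 (mean 9.62 in Hdac3-flox/flox, difference -0.94), weighs most in that sum. Aldh1a2, Tbx18, Tcf21 and Wt1 differed by -0.66, -0.19, -0.19 and 0.0014 and were not called. Trophoblast markers, 3 of 4 above 0 and 1 at an unadjusted limma p under 0.05, stood at 8.88 to 8.95 against 9.39 to 9.45. Prl4a1 was higher (limma adjusted p = 0.00127). Much of that sum is Hand1, also a heart factor (mean 8.54 in Hdac3-flox/flox, difference 0.16). The largest difference of the 4 was that of Prl4a1, 1.81, while Ascl2 and Tpbpa differed by -0.044 and 0.096. Yolk sac endoderm markers, 5 of 6 above 0, stood at 8.11 to 8.23 against 8.56 to 8.64, with 0 called and 2 at an unadjusted limma p under 0.05. The part of these cells in the values of the 10 identity genes was not tested. The calls of Ppbp and Upk3b were lost with single arrays left out, that of Ppbp with each of the 6 (limma adjusted p up to 0.151) and that of Upk3b with 4 of them (up to 0.0727).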

How the data were processed

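RNA of pooled hearts (Qiagen RNeasy, 100 ng per array) was labelled by the Affymetrix WT PLUS method, per the labels' protocols. The authors deposited log2 values, made with oligo and RMA per the submitters' processing notes. Tool versions, build and annotation are not stated in those notes. No batches or detection calls were used here, and the number of arrays limits the precision.

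Names came from the platform annotation: of 41345 rows, 23521 had 1 symbol, 1814 several and 16010 none listed. A row shared by Egfl7 and its microRNA was left out for that reason. By gene number 23328 rows matched RefSeq GRCm38.p6. The brightest row stood for each of 22180 genes, with no filter. The test of each difference was limma 3.58.1 under R 4.3.3 (two-sided, constant prior, 4 residual and 6.92 total degrees of freedom, Benjamini-Hochberg over all genes, threshold 0.05). The steps were tested on simulated data. Ratios within arrays used an exact permutation test (scipy 1.17.1), and plots matplotlib 3.10.9. Array medians were 5.64 to 5.71 and correlations between arrays 0.980 to 0.989, with no duplicates. The same-numbered arrays of the groups had correlations of deviations of -0.013, -0.086 and 0.040, so the numbers were not taken to pair them.

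Named were the 10 genes, Hdac3 and, per list, genes past the threshold and up to 4 others with the smallest p. Members and lists were chosen with earlier results of these data known. Alternatives were a replicate block, single arrays left out, scalings, filters on dim genes, means of rows, other priors and array weights.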

Additional observations from a re-analysis of the deposited data

How the results depend on the processing

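In all 15 alternatives 0 of the 10 identity genes were called with limma (9 were tested above the median row, where Cldn5 drops out). Between 0 and 3 had an unadjusted limma p under 0.05, where 2318 to 3960 of 22180 genes did in the alternatives without a filter. With the filters it was 2 of 10 against 3117 of 17686 genes at the 25th percentile row, and 3 of 9 against 2903 of 12480 at the median row. The smallest adjusted p was 0.0950, for Egfl7 with a trended variance prior. The median difference of the identity genes stayed between -0.047 and 0.013. Over all genes the count of 95 called was 149 under quantile normalization and 243 with array weights. It was 235 of 17686 without genes below the 25th percentile row and 617 of 12480 without genes below the median row. With the trended prior, robust or not, it was 866, and with 1 array left out it was between 2 and 25. With the replicate block it was 0 (2744 at an unadjusted limma p under 0.05), and 0 of the 10 genes were called. With it Prl4a1, Upk3b and Ppbp missed the threshold (limma adjusted p = 0.0520, 0.105 and 0.105). The cause of these shifts was not tested. Signs turned for Tie1 under quantile normalization (0.015) and for Wt1, an epicardial marker, with array weights (-0.025). With 1 array left out Pecam1 ranged from -0.028 to 0.079, Cdh5 from -0.032 to 0.053, Wt1 from -0.048 to 0.057, and the trophoblast markers Ascl2 from -0.13 to 0.020 and Tpbpa from -0.089 to 0.36. The 72 genes named by rule kept sign and side of the threshold in 1012 of 1072 combinations of gene and alternative. Most of these genes were not called at first, so that count says little about how stable a call is. The only called genes, Prl4a1, Upk3b and Ppbp, lost their calls in 1, 5 and 7 of the 15 alternatives. The 3 arrays per group limit the precision to the stated intervals, and differences of dim rows, such as that of Cldn5, may be understated.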

Other observations

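The correlations between the 10 identity genes from pool to pool were of both signs. After each group's mean was removed, 22 of the 45 pairs of these genes had a correlation above 0 over the 6 arrays, with a median of -0.028. Cdh5, Flt1 and Egfl7 varied alike (0.92 for Cdh5 and Flt1, 0.87 for Flt1 and Egfl7, 0.84 for Cdh5 and Egfl7). Pecam1 and Emcn also varied alike (0.86), both lowest in replicate 3 of each group, while Kdr and Emcn varied oppositely (-0.83). These values describe 6 arrays that share their normalization. No other gene pairs were set beside them, so independent variation of the genes cannot be told apart from measurement noise.

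The average of the 10 centred profiles was nearly flat, from -0.034 in Hdac3-Isl1KO replicate 1 to 0.026 in Hdac3-flox/flox replicate 1. Among 10953 genes at or above the median level and outside the lists, those with the most similar profile by Pearson's r over the 6 arrays were Zfp35, Car11, Alkbh6, Ap1b1 and Ambra1, with r from 0.962 to 0.998. Their own values spanned 0.073 to 0.27 over the arrays. They were picked as the highest of 10953 genes over only 6 arrays, so such r values do not show that these genes vary together with the 10.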
